A study of Rattus norvegicus with 4 samples.

Results

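Glycogen is the stored form of glucose in the liver, and 9 genes of its synthesis and breakdown were chosen by symbol. They were *Gys2*, *Pygl*, *Ppp1r3b*, *Ppp1r3c*, *Ppp1r3g*, *Gbe1*, *Ugp2*, *Phka2*, and *Phkg2*. The expression tables listed 8 of them, each as a single annotated row, among 16992 genes. *Ppp1r3g* was not analysed here. Liver RNA was sequenced from the left lateral lobe of 4 male wild-type Wistar rats, bought at 6 weeks of age. A single animal received 4.5% sevoflurane for 6 hours and another 6% desflurane for 6 hours, in an oxygen mixture through a nose cone, and each agent had its own control rat, which inhaled that agent only until consciousness was lost and was then sacrificed. All 4 rats were therefore exposed to an anesthetic agent, and an unexposed liver was not analysed here. Per the methods of the study, food was withdrawn before anesthesia, so that the rats kept under anesthesia for 6 hours were also without food for longer, and these influences cannot be told apart.

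In hepatocytes, UDP-glucose pyrophosphorylase (*Ugp2*) makes the activated glucose that liver glycogen synthase (*Gys2*) adds to the growing chain, and the branching enzyme (*Gbe1*) introduces the branch points. Liver glycogen phosphorylase (*Pygl*) releases glucose units again when it is phosphorylated by phosphorylase kinase, of which *Phka2* encodes a regulatory and *Phkg2* a catalytic subunit in liver. Protein phosphatase 1 opposes this kinase and activates glycogen synthase, and it is brought to the glycogen particle by targeting subunits such as those encoded by *Ppp1r3b* and *Ppp1r3c*. These proteins are controlled largely by phosphorylation and by metabolites, and transcript levels do not measure enzyme activity or glycogen content.

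The values are TPM (the transcript share scaled to a fixed sum), a level corrected for transcript length and sequencing depth. Aligned sequence was between 4.47 and 5.40 Gb per library. Genes were called upregulated or downregulated when they differed by more than 2-fold and exceeded 2 TPM in at least 1 of the libraries compared, which is the rule of the study. Regulation by an agent means here only such a difference between the compared livers, and the agent was not tested as its cause. With 1 library per condition there is no replicate error and no p-value, and the difference between the 2 controls is the only measure of how far similarly treated livers differ. The median log2 ratio to the own control was 0.05 with sevoflurane and 0.12 with desflurane over the 9136 genes that exceeded 2 TPM in every library, and levels were therefore also compared after median-of-ratios scaling, which brings these medians close to 0. All 6 hepatocyte markers were higher than 2 TPM in every library, and their summed TPM was between 108901 and 125088. The highest single marker made up most of this sum, with between 77519 and 92912 TPM. The 3 skeletal muscle markers summed to at most 0.117 TPM. The sevoflurane control stood apart by 4 pancreatic acinar markers, which summed to 21.1 TPM there and to at most 0.0384 TPM in the other libraries. The 6 hour libraries were compared with both controls. The 5 Kupffer cell markers summed to 423 TPM and 335 TPM in the controls for sevoflurane and desflurane and to 264 TPM and 402 TPM in the 6 hour livers, and their part in the results was not tested. In bulk liver, fewer cells of a type and less RNA per cell cannot be told apart.

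In the coordinates of the files (rn6), *Gys2* lies at chr4:176638632-176679805 on the minus strand, *Pygl* at chr6:92597759-92643734 on the minus strand, and *Ugp2* at chr14:106208176-106248539 on the minus strand. *Ppp1r3b* lies at chr16:60415221-60427474 and *Ppp1r3c* at chr1:255371830-255376833, both on the minus strand. *Gbe1* lies at chr11:7210169-7485895 and *Phkg2* at chr1:199019517-199032042, both on the plus strand. *Phka2* has an annotated span of 954246 base pairs at chrX:35971667-36925912 on the minus strand, and the longest transcript assembled within it covered only between 8.02% and 8.03% of this span.

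Promoter sequence was available from RefSeq (GRCr8) for 8 of the 9 chosen genes, all but *Ppp1r3b*. The windows of 300 bases covered 250 bases before and 50 bases after the annotated start. The stretch before the start is shown for *Gys2*, the member with the highest increase, and for *Ppp1r3c*, a member that was lower after 6 hours with both agents. They are at chr4:177137237-177137486 and chr1:243878528-243878777, both on the minus strand and written 5′ to 3′ in the direction of the gene. Capitals mark a motif match.
Gys2: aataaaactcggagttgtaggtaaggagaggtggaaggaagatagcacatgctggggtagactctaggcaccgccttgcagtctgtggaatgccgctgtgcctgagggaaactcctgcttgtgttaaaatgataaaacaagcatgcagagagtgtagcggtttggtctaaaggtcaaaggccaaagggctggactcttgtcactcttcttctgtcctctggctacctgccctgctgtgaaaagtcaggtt
Ppp1r3c: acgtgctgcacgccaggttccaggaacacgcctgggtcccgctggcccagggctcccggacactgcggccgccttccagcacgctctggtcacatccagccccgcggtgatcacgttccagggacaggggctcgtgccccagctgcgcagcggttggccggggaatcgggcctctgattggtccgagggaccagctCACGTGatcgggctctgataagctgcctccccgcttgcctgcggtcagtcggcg

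The windows were searched on both strands for TGACG (a half-site of the cAMP response element), CACGTG (an E-box), GTAAACA (a FOXO element), and TATAAA, motifs that do not overlap one another in these windows. *Ppp1r3c* held the E-box, which 6.42% of all 33469 promoter windows hold. *Gbe1* held TATAAA (14.2% of all windows) and *Ppp1r3g* held TGACG (21.2%), both after the start. No window of the 8 genes held GTAAACA (3.78%), and the *Gys2* window held none of the 4 motifs. The GC content of the *Gys2* window was 48.7%, compared with a median of 51.7% over all windows, and it was the lowest of the 8 genes, whose other values were between 58.7% and 70.3%. A match in these letters is a description of the window and not a binding site.

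On this length-corrected scale, *Ugp2* and then *Pygl* were the most abundant members in every library, although they differed by only 1.01-fold in the desflurane control, and *Phkg2* and *Phka2* were the least abundant. *Gys2* was 6th in both controls and 4th in both 6 hour livers. *Ppp1r3b* was 4th and 3rd in the controls for sevoflurane and desflurane and 5th and 6th in the respective 6 hour livers. Average coverage was between 69.9 and 192 for *Gys2* and between 57.1 and 269 for *Ppp1r3b*, and it was lowest for *Phka2*, at most 15.5.

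Among the genes of synthesis, *Gys2* had 56.9 TPM (sevoflurane) and 37.3 TPM (desflurane) in the controls and 99.7 TPM and 114 TPM in the respective 6 hour livers. Both 6 hour livers were higher than both controls, and the lowest 6 hour value was 1.75-fold higher than the highest control value. *Gys2* was upregulated 3.05-fold by desflurane, and 84 of the 9855 genes compared had a larger ratio. The ratio with sevoflurane was 1.75, below the limit. Against the other control, *Gys2* was 2.67-fold higher with sevoflurane and 100.1% higher with desflurane, and the latter was so close to the limit that it was not called after median-of-ratios scaling (log2 ratio 0.90). The log2 ratio of desflurane to its own control was 1.48 after this scaling. The controls themselves differed 1.52-fold, and *Gys2* was lower in the desflurane control.

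*Ugp2* was the most abundant member in all 4 libraries, with control levels of 319 TPM for sevoflurane and 210 TPM for desflurane and 6 hour levels of 169 TPM and 204 TPM for these agents. The sevoflurane control was the highest, and the sevoflurane 6 hour liver the lowest. The ratio to the own control was 0.529 with sevoflurane and 0.973 with desflurane. Against the other control, the ratios were 0.802 with sevoflurane and 0.641 with desflurane. No comparison of *Ugp2* passed the limit. The order of the agents turned between the own and the other control, whereas against the same control the sevoflurane ratio was always the lower. The sevoflurane control, against which both ratios were farther from 1, was also the library with the pancreatic acinar markers, and their part in the *Ugp2* value was not tested.

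*Gbe1* had the narrowest range of the members (1.17-fold, next to 1.18-fold for *Phkg2*), with TPM values of 139 and 135 in the sevoflurane and desflurane controls and 118 and 119 after 6 hours of each agent. The livers of a pair differed by 1.03-fold (controls) and 1.01-fold (6 hours), and both 6 hour values were lower than both controls. The ratio to the own control was 0.851 with sevoflurane and 0.886 with desflurane.

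**Figure D1:**
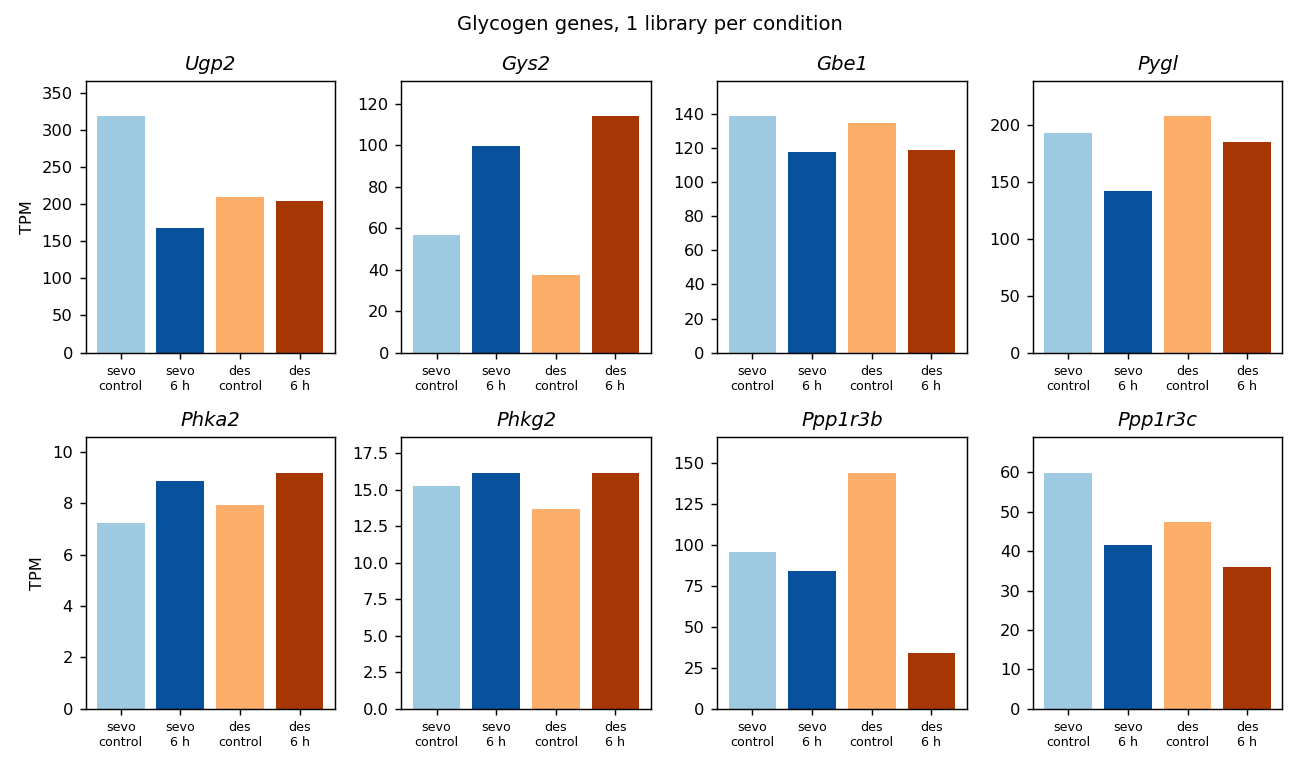
TPM values (vertical axis, starting at 0 and scaled separately for each gene) of the 8 genes in the 4 libraries, with 1 bar per library and no error bars because each condition has 1 library (sevo, sevoflurane; des, desflurane). *Gys2* reached 99.7 and 114 TPM in the 6 hour livers against 56.9 and 37.3 TPM in the controls, and *Ppp1r3b* was lowest after 6 hours of desflurane (33.9 TPM).

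Among the genes of breakdown, *Pygl* had 193 TPM (sevoflurane) and 207 TPM (desflurane) in the controls and 142 TPM and 185 TPM in the respective 6 hour livers. The sevoflurane liver was the lowest, and the desflurane liver was only 1.04-fold below the lower control. The ratio to the own control was 0.737 with sevoflurane and 0.893 with desflurane, and neither passed the limit. Because *Gys2* was higher and *Pygl* was lower, the ratio of *Gys2* to *Pygl* transcripts within a library was 0.295 and 0.180 in the sevoflurane and desflurane controls and 0.702 and 0.615 in the 6 hour livers. This ratio does not depend on library scaling.

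The subunits of phosphorylase kinase were at much lower levels. *Phka2* had TPM values of 7.23 and 7.93 in the sevoflurane and desflurane controls and 8.88 and 9.19 in the corresponding 6 hour livers. *Phkg2* had TPM values of 15.3 and 13.7 in the controls and 16.2 in each of the 6 hour livers. Ratios to the own control were between 1.06 and 1.23 for both subunits and both agents, far below the limit. These small differences depended on the processing. After median-of-ratios scaling, *Phkg2* was 15.6 in the sevoflurane control and 15.4 after 6 hours of desflurane, so that the groups overlapped. In the assembled transcript that overlaps *Phka2*, the log2 ratio with desflurane was -0.17.

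A targeting subunit of protein phosphatase 1 was the only member past the limits between the 6 hour livers. *Ppp1r3b*, which encodes the main hepatic subunit of this kind, had control levels of 95.4 TPM for sevoflurane and 144 TPM for desflurane and 6 hour levels of 83.7 TPM and 33.9 TPM for these agents. The desflurane liver stood apart as the lowest, whereas the sevoflurane liver was close to its control. *Ppp1r3b* was downregulated 4.24-fold by desflurane (log2 ratio -2.08, or -2.21 after median-of-ratios scaling), and 25 of 9855 genes had a lower ratio. It was also 2.82-fold lower than in the sevoflurane control and 2.47-fold lower than after 6 hours of sevoflurane. With sevoflurane, it was 1.14-fold lower than in the own control and 1.72-fold lower than in the desflurane control, whereas the controls differed by 1.51-fold. The sevoflurane ratio to the own control was thus smaller than the difference between the controls. With 1 library per state, no test of the difference between sevoflurane and desflurane was made.

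*Ppp1r3c* encodes a related targeting subunit, also called protein targeting to glycogen. Its levels were 59.9 TPM and 47.4 TPM in the controls for sevoflurane and desflurane and 41.5 TPM and 36.1 TPM in the respective 6 hour livers. Both 6 hour livers were lower than both controls, with ratios to the own control of 0.693 for sevoflurane and 0.761 for desflurane, and neither passed the limit. *Ppp1r3b* was 1.59-fold and 3.04-fold more abundant than *Ppp1r3c* in the sevoflurane and desflurane controls and 2.02-fold more abundant after 6 hours of sevoflurane. After desflurane for 6 hours the order was inverted, with a ratio of 0.940.

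**Figure D2:**
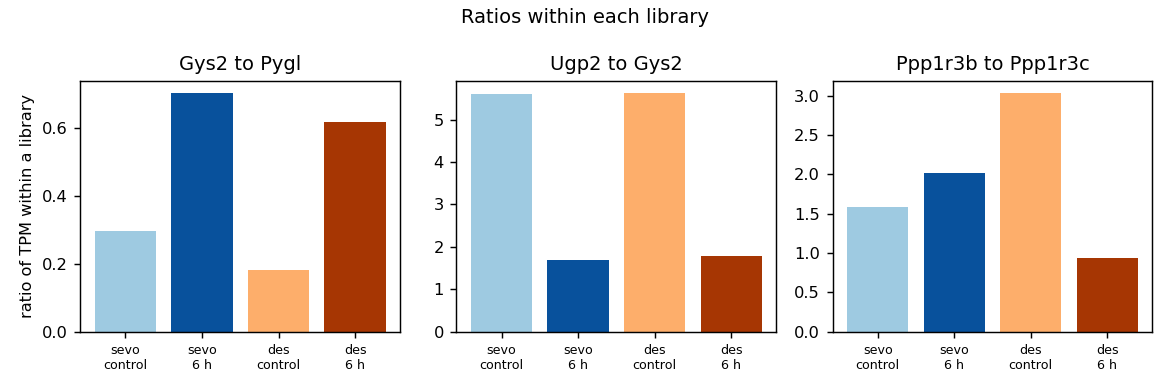
Ratios of TPM values between 2 genes within each library (vertical axis, starting at 0), for *Gys2* to *Pygl*, *Ugp2* to *Gys2*, and *Ppp1r3b* to *Ppp1r3c*, with 1 bar per library and no error bars. The ratio of *Ugp2* to *Gys2* was 5.60 and 5.63 in the controls and 1.69 and 1.796 after 6 hours of sevoflurane and desflurane.

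Against the own control, 0 of the 8 genes passed the limits with sevoflurane and 2 with desflurane, *Gys2* (up) and *Ppp1r3b* (down). Among all genes compared, sevoflurane upregulated 2.23% and downregulated 3.3% (5.54% in either direction), and desflurane upregulated 2.79% and downregulated 1.48% (4.27% in either direction). Against the desflurane control, sevoflurane passed the limits for *Gys2* (up), compared with 2.52% of all genes up, 2.59% down, and 5.12% in either direction. Against the sevoflurane control, desflurane passed them for *Gys2* (up, at the limit) and *Ppp1r3b* (down), compared with 2.84% of all genes up, 1.58% down, and 4.42% in either direction. Between the controls, 0 of the 8 genes passed, compared with 1.17% of all genes higher in the desflurane control, 1.17% lower, and 2.34% in either direction. Between the 6 hour livers, *Ppp1r3b* was lower with desflurane, compared with 2.76% of all genes higher, 1.17% lower, and 3.93% in either direction, and the other 7 members differed by at most 1.30-fold. The median log2 ratio of the 8 genes to the own control was -0.21 with sevoflurane and -0.10 with desflurane, compared with 0.05 and 0.12 over all genes compared. Without regard to direction, the median size of the log2 ratio was 0.37 with sevoflurane and 0.23 with desflurane, compared with 0.23 for both over all genes.

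For all 8 genes, both 6 hour livers were on the same side of both controls, with *Gys2*, *Phka2*, and *Phkg2* higher and the other 5 lower, except that *Phkg2* overlapped after median-of-ratios scaling and with FPKM, and *Phka2* and *Phkg2* overlapped in the assembled rows. This was a frequent arrangement, since 46.6% of 9993 genes showed it, 33.3% with higher and 13.3% with lower 6 hour values. After median-of-ratios scaling, 7 of the 8 genes showed it, all but *Phkg2*, compared with 22.3% of all genes with higher and 22.8% with lower values (45% in either direction). The comparisons of an agent with its own and the other control share a 6 hour library, and they are not independent. The ratio to the own control exceeded the difference between the controls in 6 of the 8 genes with sevoflurane and in 7 with desflurane. Among the 9136 genes above 2 TPM in every library, the shares were 62.1% and 63.6%. The exceptions among the 8 genes were *Ppp1r3b* and *Phkg2* with sevoflurane and *Ugp2* with desflurane.

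**Figure D3:**
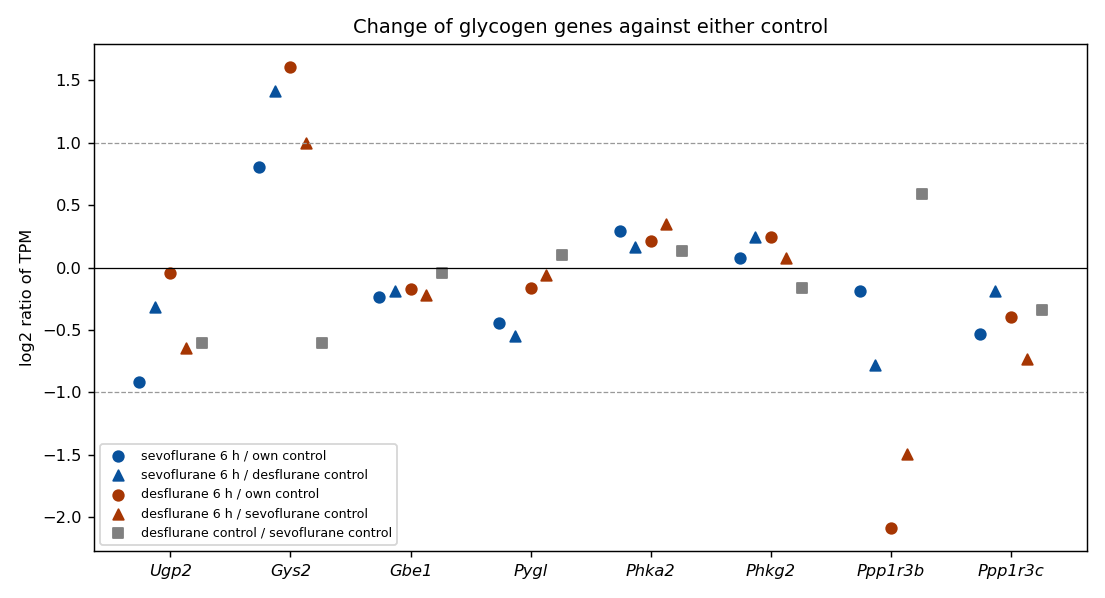
Log2 ratios of TPM values (vertical axis) for the 8 genes, with circles for each 6 hour library against its own control, triangles for the same library against the other control, and squares for the desflurane control against the sevoflurane control, and dashed lines at the 2-fold limit. *Ppp1r3b* with desflurane lay below the lower line against both controls (-2.08 and -1.49), and *Gys2* with desflurane above the upper line against its own control (1.61) and at the line against the other.

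*Ppp1r3b* had the widest range over the libraries (4.24-fold), and its pattern was compared with that of the other genes above the TPM limit in every library by the root mean square distance of centered log2 TPM values over 4 libraries. The nearest were *Dusp1*, which encodes a phosphatase of MAP kinases (distance 0.24), *Tubb2a*, a tubulin gene (0.25), and *Rcan1*, which encodes a regulator of calcineurin (0.28). *Dusp1* had 52.7 TPM (sevoflurane) and 127 TPM (desflurane) in the controls and 58.4 TPM and 22.4 TPM in the respective 6 hour livers. *Tubb2a* had 25.5 TPM and 40.6 TPM in the controls and 16.3 TPM and 10.4 TPM in the 6 hour livers, and *Rcan1* had 154 TPM and 209 TPM in the controls and 124 TPM and 79.1 TPM in the 6 hour livers. As for *Ppp1r3b*, the desflurane control was the highest and the desflurane liver the lowest, whereas *Dusp1*, unlike *Ppp1r3b*, was not lower after sevoflurane than in its control. With only 4 libraries, such likeness is a description.

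The pathway was completed with 36 other genes of glycogen and glucose handling that the files listed, of 37 chosen (*Ppp1r3f* was not analysed here). Sevoflurane upregulated 1 and downregulated 1 of the 30 that could be called, and desflurane upregulated 3 and downregulated 1 of 31. Among all genes compared, sevoflurane upregulated 2.23% and downregulated 3.3%, and desflurane upregulated 2.79% and downregulated 1.48%. The median log2 ratio of the pathway genes that could be called was 0.01 with sevoflurane and 0.17 with desflurane. Over all genes compared it was 0.05 and 0.12. None of the other phosphorylase kinase subunits, catalytic or targeting subunits of protein phosphatase 1, and kinases of glycogen synthase passed the limits with either agent against its own control.

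Laforin (*Epm2a*), a glycogen phosphatase, and malin (*Nhlrc1*), its partner ubiquitin ligase, were each upregulated by 1 agent against its own control. Against the other control, the agent that passed was the other one for *Epm2a*, and both agents passed for *Nhlrc1*. *Epm2a* had control levels of 5.14 TPM for sevoflurane and 3.22 TPM for desflurane and 6 hour levels of 6.87 TPM and 7.81 TPM for these agents, an increase of 2.43-fold with desflurane and a ratio of 1.34 with sevoflurane. *Nhlrc1* had 1.71 TPM and 2.82 TPM in these controls and 7.39 TPM and 3.77 TPM in the 6 hour livers, an increase of 4.34-fold with sevoflurane and a level 33.4% higher with desflurane. Against the other control, *Epm2a* was upregulated 2.13-fold by sevoflurane and was 1.52-fold higher with desflurane, which did not pass. Against the other control, *Nhlrc1* was upregulated by both agents, 2.62-fold by sevoflurane and 2.21-fold by desflurane. With 1 TPM added before folds, *Epm2a* with sevoflurane and *Nhlrc1* with desflurane no longer passed against the other control. For both genes, the 6 hour livers were higher than both controls, and average coverage was between 3.06 and 13.2, which is low.

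Of the genes for the release of glucose, *G6pc* and *Slc37a4* were upregulated by desflurane against its own control, and *Slc2a2* did not pass the limit. *G6pc*, which encodes the catalytic subunit of glucose 6-phosphatase, had 206 TPM and 114 TPM in the controls for sevoflurane and desflurane and 223 TPM and 554 TPM in the 6 hour livers. It was upregulated 4.86-fold by desflurane, whereas its ratio with sevoflurane was 1.09 to the own and 1.96 to the desflurane control. *Slc37a4*, which encodes the transporter of glucose 6-phosphate, had 75.2 TPM and 65.3 TPM in the controls and 99.4 TPM and 143 TPM in the 6 hour livers, and was upregulated 2.18-fold by desflurane. After median-of-ratios scaling, this *Slc37a4* ratio was only just above the limit. Against the sevoflurane control, *G6pc* was 169.5% higher with desflurane and passed the limit, and *Slc37a4* was 1.90-fold higher and did not pass.

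*Slc2a2*, which encodes the hepatic glucose transporter GLUT2, had TPM values of 294 in each of the controls and 429 and 445 after 6 hours of sevoflurane and desflurane. The controls were nearly identical, and the ratios of 1.46 and 1.51, which were the same to either control, did not pass the limit. *Hk3*, a hexokinase gene that is mainly expressed in leukocytes, was at 10.8 TPM and 4.18 TPM in the controls for sevoflurane and desflurane and at 1.65 TPM and 2.59 TPM in the 6 hour livers. It was downregulated 6.51-fold by sevoflurane against its own control and 2.53-fold against the desflurane control. The latter call was lost with 1 TPM added before folds. With desflurane, the *Hk3* ratio to the own control was 0.620 and did not pass, and the gene was downregulated 4.15-fold against the sevoflurane control. The controls themselves differed 2.58-fold, more than the limit, so that the contrast between the agents depended on the control. The 4 leukocyte markers summed to 18.0 TPM in the sevoflurane control, 5.43 TPM after sevoflurane, 11.7 TPM in the desflurane control, and 13.9 TPM after desflurane, with 1 of them higher than 2 TPM in each library but the sevoflurane control, where 2 were, and their part in the *Hk3* values was not tested.

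**Figure D4:**
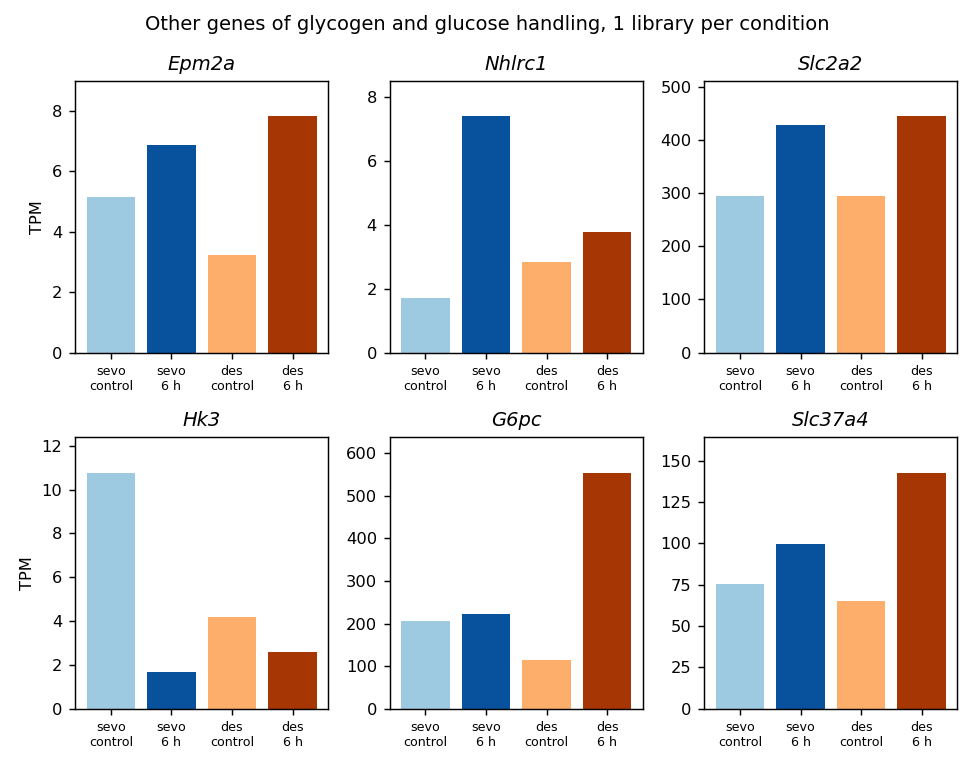
TPM values (vertical axis, starting at 0 and scaled separately for each gene) of 6 other genes of glycogen and glucose handling in the 4 libraries, with 1 bar per library and no error bars (sevo, sevoflurane; des, desflurane). *G6pc* was highest in the desflurane 6 hour liver (554 TPM), and *Hk3* in the sevoflurane control (10.8 TPM).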

How the data were processed

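RNA of 4 livers was sequenced, 1 library per condition, with conditions from the sample labels. The authors trimmed the reads, mapped them to rn6 with HISAT2, sorted them with SAMtools, and ran StringTie with the refGene annotation of rn6. Coverage in the deposited tables is a signal averaged over exons and unscaled. FPKM values were normalized by the authors with StringTie. The deposited TPM values are a signal that adds up to 1000000 over assembled rows, with annotated rows on the same scale.

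Annotated rows longer than 200 base pairs were used, and rows sharing a symbol were added up. Depth came from comparing FPKM with coverage. Gene-level read counts were not used here, so no counting intervals are given. Folds were calculated without a pseudocount. Shares of genes called refer to genes listed in both libraries and above 2 TPM in at least 1. No test was made. The 9 genes and the lists were chosen with earlier results of these data known. Named beyond the 9 were, of the other pathway genes, those past the limits with either agent against its own control and the 3 with the highest mean TPM, and the 3 genes nearest in pattern to the member with the widest range. Of these, 2 pathway genes are counted in the list but not reported here. Genes named in the closing section were chosen after their values were seen. Alternatives tried were other limits on TPM and fold, 1 TPM added before folds, scaling by the median of ratios, annotated rows rescaled to a common sum, FPKM, all lengths, the mean of the 2 controls, and, added after the data were seen, the assembled row and the overlap of 6 hour and control values. Python 3.11.15 was used with numpy 2.4.6, pandas 2.3.3, and matplotlib 3.10.9.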

Additional observations from a re-analysis of the deposited data

How the results depend on the processing

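With a fold limit of 1.5, the number of the 8 genes past the limits against the own control was 2 with sevoflurane (*Gys2* up and *Ugp2* down) instead of 0, and it stayed at 2 with desflurane under every alternative. With the mean of the 2 controls, it was 1 with sevoflurane (*Gys2* up). For sevoflurane against the desflurane control, it was 2 with a fold limit of 1.5 and 0 with a limit of 3, instead of 1. For desflurane against the sevoflurane control, it was 4 with a fold limit of 1.5 and 0 with a limit of 3, instead of 2. The same comparison gave 1 with a pseudocount of 1 TPM, median-of-ratios scaling, rescaled annotated rows, or FPKM, since *Gys2* was at the limit. With a fold limit of 1.5, 3 of the genes passed between the controls instead of 0, and with a limit of 3, 0 passed between the 6 hour livers instead of 1. Shares over all genes were calculated only at the main limits. The counts under other limits, here and for the other pathway genes, therefore have no share of all genes beside them.

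For the 36 other genes, a fold limit of 1.5 gave 4 past the limits with sevoflurane instead of 2 and 8 with desflurane instead of 4, and a limit of 3 gave 2 with desflurane. A TPM limit of 1 and the mean of the 2 controls each gave 3 with sevoflurane. With desflurane, the mean of the 2 controls left 4, but 2 up and 2 down instead of 3 and 1. For sevoflurane against the desflurane control, the number was 8 with a fold limit of 1.5, 1 with a limit of 3, and 3 with the pseudocount, instead of 5. It was 4 with a TPM limit of 5 or with median-of-ratios scaling. FPKM left 5, but 4 up and 1 down instead of 3 and 2. For the comparisons that follow, count changes of up to 1.5-fold are not listed. For desflurane against the sevoflurane control, it was 8 and 2 with fold limits of 1.5 and 3, 2 with a TPM limit of 5, 3 with the pseudocount, and 2 with FPKM, instead of 5. Between the controls it was 5 and 1 with fold limits of 1.5 and 3, instead of 2. Between the 6 hour livers it was 6 and 1 with these limits and 1 with a TPM limit of 5, instead of 3.

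No call of one of the 8 genes changed direction. Of 48 log2 ratios per alternative, those that changed sign were 7 with FPKM, 4 with median-of-ratios scaling, 2 with rescaled annotated rows, and 5 with the assembled row, all of them below the limits. The number of genes without overlap between 6 hour and control values was 7, 8, 7, 8, and 6 under median-of-ratios scaling, rescaled rows, FPKM, no length filter, and the assembled row. No paired analysis was possible because each condition has 1 library. Leaving out a library was not possible for the same reason.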

Other observations

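Some further genes of glycogen handling were named after their values were seen. Of the 31 other pathway genes above the TPM limit, 11 were higher and 7 were lower in both 6 hour livers than in both controls, an arrangement that 33.3% (higher) and 13.3% (lower) of all genes showed. *Stbd1*, which encodes a protein that anchors glycogen to membranes, had control levels of 56.8 TPM for sevoflurane and 47.1 TPM for desflurane and 6 hour levels of 97.9 TPM and 69.4 TPM for these agents. It passed the limit with sevoflurane against the desflurane control (2.08-fold) but not against the own control (1.72-fold). After median-of-ratios scaling, this call of *Stbd1* was lost. *Gaa*, which encodes the lysosomal enzyme that degrades glycogen, had 38.2 TPM and 37.4 TPM in the controls and 42.2 TPM and 46.4 TPM in the 6 hour livers. *Ppp1r3d*, which encodes another targeting subunit, was near the TPM limit, with 1.95 TPM and 2.19 TPM in the controls and 1.71 TPM and 4.01 TPM in the 6 hour livers. With desflurane it passed against the sevoflurane control (2.06-fold) and the sevoflurane 6 hour liver (2.35-fold) but not against the own control (1.83-fold). Neither call was kept with 1 TPM added before folds.

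Among the kinases of glycogen synthase, *Gsk3a* had 20.7 TPM and 19.4 TPM in the controls for sevoflurane and desflurane and 26.3 TPM in each 6 hour liver, higher than both controls. *Gsk3b* overlapped, with 28.3 TPM and 24.2 TPM in the controls and 25.2 TPM and 27.2 TPM in the 6 hour livers. *Prkaca* and *Prkacb*, which encode catalytic subunits of protein kinase A, were lower in both 6 hour livers than in both controls. *Prkaca* had 49.1 TPM and 56.4 TPM in the controls and 46.8 TPM and 46.3 TPM in the 6 hour livers. *Prkacb* had 32.3 TPM and 28.9 TPM in the controls and 23.9 TPM and 27.5 TPM in the 6 hour livers. None of these ratios to either control passed the limit.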
